A study of Mus musculus with 12 samples.

Results

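Protein tyrosine phosphatases and dual-specificity phosphatases were examined among the genes at which regions of Runx1b DamID signal were listed in haemogenic endothelium, the endothelium that gives rise to blood. Runx1b is an isoform of the transcription factor Runx1. DamID marks such places by tethering the bacterial methylase Dam to the protein: GATC sites nearby gain methyl groups on adenine, and fragments cut at those sites are read by sequencing. Per the labels there were 6 libraries from the line iRunx1b::Damko, which carries the Runx1b::Dam fusion, and 6 from the line iDamko, which carries Dam alone. Both are strain 129 mouse embryonic stem cell lines that are runx1-/-, so neither had functional Runx1 of its own. From day 3.25 embryoid bodies, cells positive for FLK1 were kept in blast culture for 2 days before they were isolated again. Each line had 3 biological replicates and 3 libraries called technical replicates, and in each line the cells of 2 libraries were cKIT+ TIE2+ CD41- by flow cytometry and those of 4 were FLK1+ by magnetic selection.

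The members were all protein-coding genes of the RefSeq mouse annotation whose symbols begin with Ptpr (receptor type), Ptpn (non-receptor type) or Dusp (dual-specificity) followed by a letter or digit. There were 62 of them among 21900 protein-coding genes. A gene was called listed when its symbol had a row in the authors' table, which holds 5867 genes and 8133 distinct regions of the mm9 build. By that rule 28 of the 62 members were listed, with 52 regions. The rule itself uses the readout, so the shares below are described and not tested. Reads are given once for each gene and not by library. Library depth and replicate error are therefore unknown, and Runx1b::Dam cannot be set against Dam.

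Protein tyrosine phosphatases remove phosphate from tyrosine through a cysteine in their active site and so oppose the tyrosine kinases. The receptor types span the membrane and often carry adhesion-like domains outside the cell, while the non-receptor types are placed by SH2, FERM or other domains. Dual-specificity phosphatases also act on serine and threonine. Their best known branch, the MAP kinase phosphatases, switches off ERK, JNK and p38 and is often itself induced by MAP kinase signalling. In endothelium the best studied member is Ptprb, or VE-PTP, a receptor phosphatase that acts on VE-cadherin junctions and on the angiopoietin receptor TIE2.

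Listed genes were found in all 3 types, and within the dual-specificity type they lay mostly among the MAP kinase phosphatases. Of the 62 members, 45.2% were listed (exact Clopper-Pearson 95% interval 32.5 to 58.3%), against 19.0% of all protein-coding genes (4162 of 21900). With older gene names matched as well, the share of all protein-coding genes was 20.9%, and the same 28 members were counted. Receptor types had 9 of 21 genes listed (42.9%, 21.8 to 66.0%), non-receptor types 9 of 17 (52.9%, 27.8 to 77.0%) and dual-specificity types 10 of 24 (41.7%, 22.1 to 63.4%). The intervals of the 3 types overlapped widely. They cover counting error only, and genes are not replicates of the experiment.

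**Figure D1:**
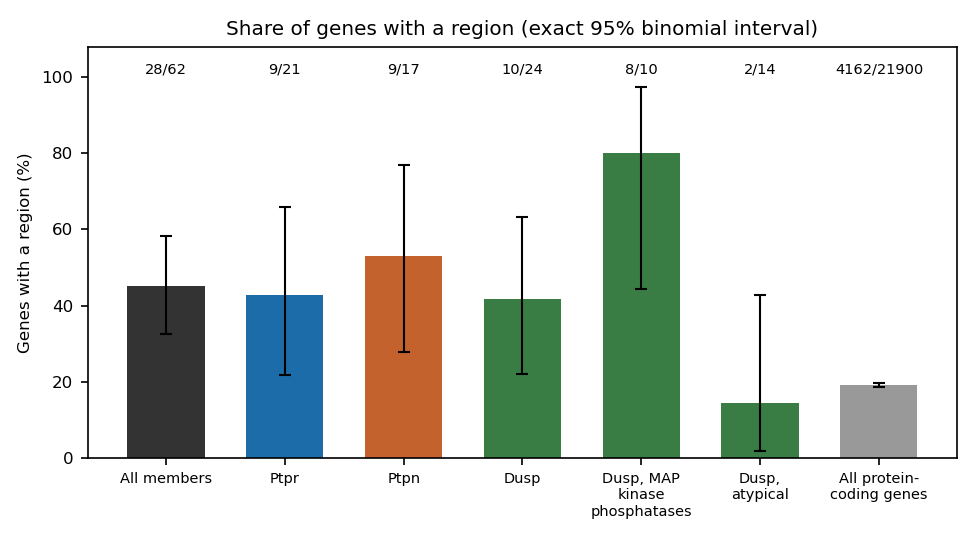
Share of genes with a region (vertical axis, percent) for all phosphatase members, for the Ptpr, Ptpn and Dusp types, for the Dusp genes split into MAP kinase phosphatases and atypical genes, and for all protein-coding genes. Bars give the share, whiskers the exact 95% binomial interval, and the counts stand above. The MAP kinase phosphatases reached 80.0% and the atypical genes 14.3%, against 19.0% of all protein-coding genes.

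MAP kinase phosphatases were listed in 8 of 10 cases (80.0%, 44.4 to 97.5%) and atypical dual-specificity genes in 2 of 14 (14.3%, 1.78 to 42.8%). The split follows the named subfamilies and does not sort the proteins by whether they act on MAP kinases. It used no value of the table, but the lists were chosen with earlier results of these data known. All 4 nuclear inducible enzymes were listed: Dusp1, an immediate-early enzyme acting on p38 and JNK, Dusp2, first studied in lymphoid cells, Dusp4, and the ERK-specific Dusp5. Of the cytoplasmic ERK phosphatases Dusp6 and Dusp7 were listed and Dusp9 was not. Of those that prefer p38 and JNK, Dusp8 and Dusp10 were listed and Dusp16 was not. The 2 listed atypical genes were Dusp3, also called VHR, and Dusp23. The 12 atypical genes with no row were Dusp11, Dusp12, Dusp13, Dusp14, Dusp15, Dusp18, Dusp19, Dusp21, Dusp22, Dusp26, Dusp27 and Dusp28. Dusp9 and Dusp21 lie on chromosome X, where the share of listed protein-coding genes was 21.2% (205 of 966) but their median was only 178 reads per kb of region.

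Long genes were listed more often, so the types were set beside genes of like length. Protein-coding genes were divided by length into 5 classes of equal size. In the longest class, from 57.1 kb upward, 36.1% of all protein-coding genes were listed, and 6.51% in the shortest, up to 4.157 kb. All 9 listed receptor genes lay in the longest class, where they made up 9 of 18 (50%, 26.0 to 74.0%), an interval that includes the 36.1% of all genes. The non-receptor genes of that class were listed in 5 of 9 cases (55.6%, 21.2 to 86.3%), again with 36.1% inside the interval. From 11.6 to 24.6 kb they were listed in 3 of 4 cases (75%, 19.4 to 99.4%), an interval above the 17.1% of all genes. From 24.6 to 57.1 kb it was 1 of 4 (25%, 0.631 to 80.6%), against 21.1% of all genes. Of the 10 MAP kinase phosphatases, 8 lay in the 3 shorter classes, while Dusp10 (41.3 kb, listed) and Dusp16 (91.6 kb, not listed) were longer. In the 3 shorter classes together, up to 24.6 kb, 7 of 8 were listed (87.5%, 47.3 to 99.7%), against 2 of 12 atypical genes (16.7%, 2.09 to 48.4%) and 12.6% of all protein-coding genes of those classes (1658 of 13140). The intervals of the MAP kinase phosphatases and the atypical genes overlapped there. Single genes went both ways. The listed genes Dusp2 and Dusp1 are 2.22 and 2.88 kb long, while the receptor genes Ptprt (1139 kb), Ptprn2 (792 kb) and Ptprk (523 kb) had no row. The longest member, Ptprd (2271 kb), was listed, and the shortest, Dusp21 (0.825 kb), was not. The median lengths of listed and unlisted genes were 151 and 145 kb for receptor types, 59.1 and 62.0 kb for non-receptor types, and 9.72 and 12.9 kb for dual-specificity types. Of the 12 unlisted receptor genes, 5 were shorter than any listed one.

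**Figure D2:**
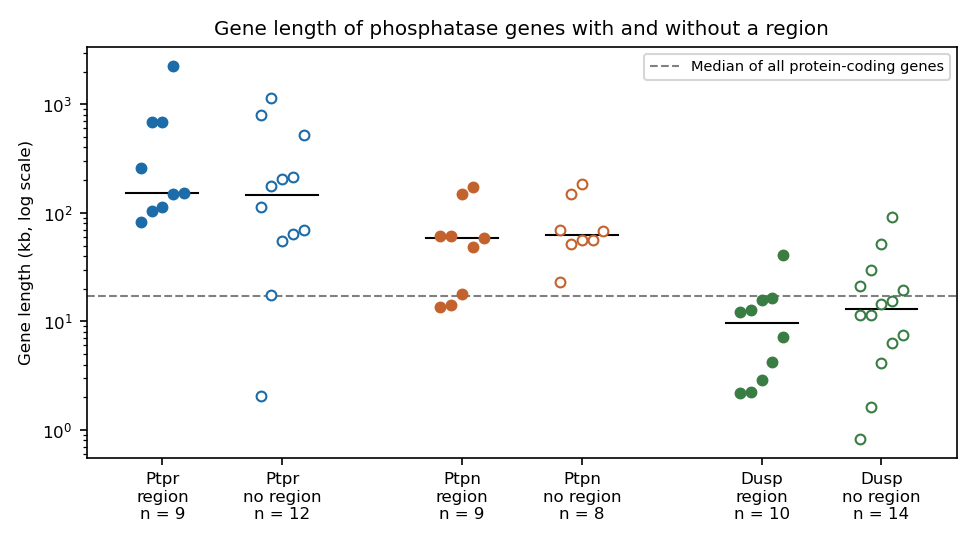
Gene length (vertical axis, kb, log scale) of each phosphatase gene with a region (filled) and without one (open), by type. Short black lines mark the medians and the dashed line the median of all protein-coding genes, 17.1 kb. Listed receptor genes are all 83.2 kb or longer, 5 of the 12 unlisted ones are shorter than that, and most Dusp genes lie below the dashed line.

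Median signal within the regions was close to that of other listed genes, and the values of single members spread widely within each type. The unit is reads per kilobase of region, which the authors did not scale to library size and which is no enrichment over Dam. The 28 listed members had a median of 653 reads per kb, against 687 for listed protein-coding genes. Non-receptor types had a median of 709.9 (range 415 to 1182), dual-specificity types 689 (351 to 1585) and receptor types 634 (112 to 786). Above the median of all listed genes, 683 reads per kb, stood 5 of 9 non-receptor, 5 of 10 dual-specificity and 2 of 9 receptor genes, while 50.7% of listed protein-coding genes did. Counting that as the rule, 12 of 62 members passed, against 9.63% of all protein-coding genes.

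**Figure D3:**
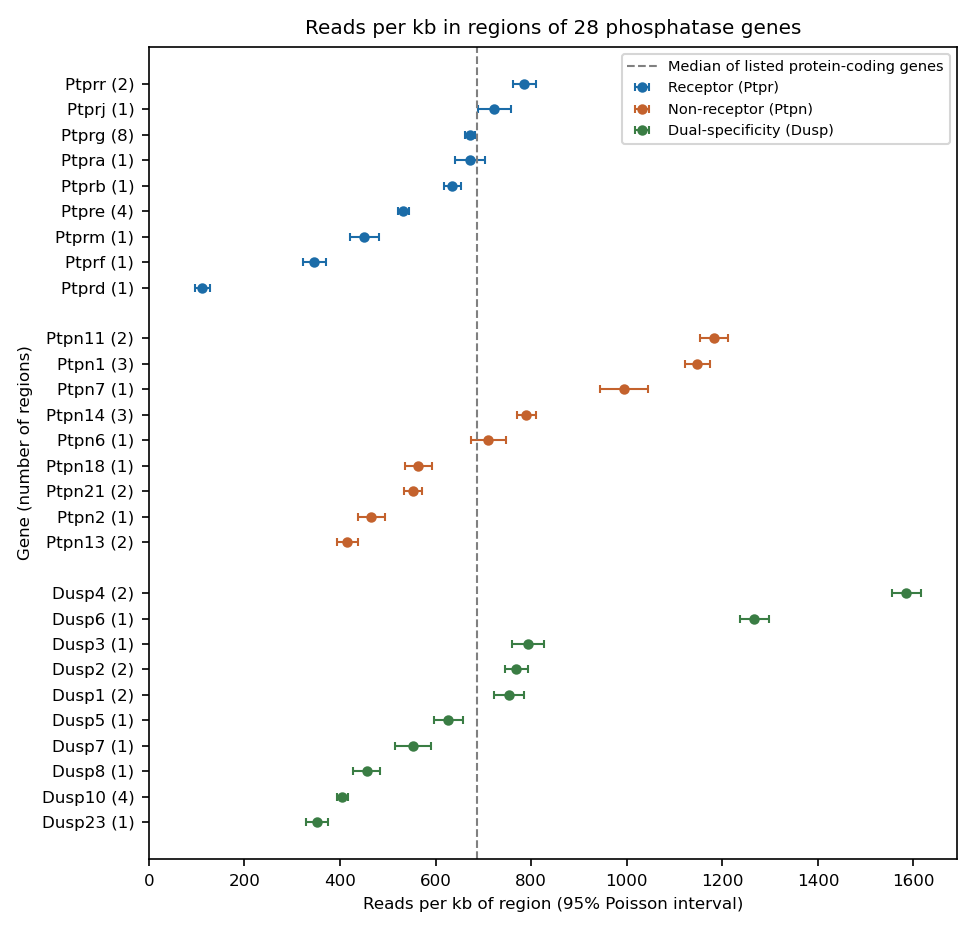
Reads per kb of region (horizontal axis) for the 28 listed phosphatase genes, grouped by type and ordered by value, with the number of regions in brackets. Points give the deposited value, whiskers the 95% Poisson interval of its read count, and the dashed line the median of listed protein-coding genes, 687. Dusp4, Dusp6, Ptpn11 and Ptpn1 stand above 1100, no receptor gene exceeds 786, and Ptprd is lowest at 112.

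Of the MAP kinase phosphatases, Dusp4 (ENSMUSG00000031530) had the highest value of all members. Its 2 regions on chromosome 8, between 35854848 and 35879848, held 11101 reads, or 1585 reads per kb (95% Poisson interval 1556 to 1615), higher than 96.8% of listed protein-coding genes. Chromosome 8 had the highest median of all chromosomes, 984 reads per kb, and Dusp4 stood at 1.61 times it. Dusp6 (ENSMUSG00000019960), the ERK phosphatase best known as a feedback inhibitor of FGF signalling, had a single region of 5300 bp on chromosome 10 between 98722270 and 98727570. It held 6717 reads, or 1267 reads per kb (1237 to 1298). Relative to its own chromosome Dusp6 was the highest member, at 1.90 times the median of 666. The Poisson intervals of these 2 genes did not overlap each other or that of any other Dusp gene.

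Dusp3 followed at 792 reads per kb (759.5 to 826), on chromosome 11, whose median was 812. Dusp2 had 769 (744 to 794) and Dusp1 753 (723 to 784), and the intervals of these 3 overlapped. Lower values were 626 at Dusp5, 552 at Dusp7 and 455 at Dusp8. Dusp10, a JNK and p38 phosphatase, had the most regions of the type, 4, but only 405 reads per kb (393 to 417). Dusp23 was lowest at 351 (328 to 375).

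Of the non-receptor types, both SH2 phosphatases and both members of the PTP1B group were listed. Ptpn11 (ENSMUSG00000043733), or SHP-2, which promotes Ras and ERK signalling below receptor tyrosine kinases, had 2 regions on chromosome 5 between 121633529 and 121640829. They held 6208 reads, or 1182 reads per kb (1153 to 1212). Ptpn1, or PTP1B, an enzyme of the endoplasmic reticulum that acts on the insulin receptor, had 3 regions on chromosome 2 between 167767574 and 167800174 and 1147 reads per kb (1122 to 1174). Their intervals overlapped, so the 2 are not separated beyond counting error. Their relatives had less: 709.9 reads per kb at Ptpn6, or SHP-1, an inhibitory phosphatase of blood cells, and 465 at Ptpn2, the T cell phosphatase that acts on JAK kinases.

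Ptpn7, a leukocyte enzyme that binds ERK and p38, had 994 reads per kb (945 to 1044) in a single region of 1550 bp on chromosome 1. Its relative Ptpn5, a neuronal enzyme, had no row. Of the FERM domain phosphatases, Ptpn14, a regulator of YAP, had 3 regions and 790.1 reads per kb (771 to 809.9). Ptpn21 had 2 regions and 552, and Ptpn13, a large scaffold-like enzyme with PDZ domains, 2 regions and 415 (394 to 437), the lowest of the type. Ptpn3 and Ptpn4, the remaining FERM members, had no row. In the PEST group Ptpn18 was listed at 564 reads per kb, while Ptpn12 and Ptpn22 were not. Ptpn9, Ptpn20 and Ptpn23 had no row either.

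Of the receptor types, Ptprr (ENSMUSG00000020151), a phosphatase that binds MAP kinases, was highest with 786 reads per kb (763 to 809) in 2 regions on chromosome 10 between 115697470 and 115706470. Ptprj, known as CD148 or DEP-1, which acts on growth factor receptors and Src, had a single region at 723 (689 to 759). Ptprg, whose ectodomain resembles carbonic anhydrase, came next at 672 (662 to 683), and Ptpra, an activator of Src kinases, had 671. The value of Ptprg was 0.778 times the median of chromosome 14, 865. Ptprb had 634 reads per kb (617 to 652), slightly under the median of listed genes. Ptpre, close kin of Ptpra, had 533 (521 to 545) over 4 regions.

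The 3 lowest receptor genes were Ptprm, Ptprf and Ptprd. Ptprm, which binds its own kind between cells, had 451 reads per kb and Ptprf, or LAR, 346. Ptprd had 196 reads in its single region on chromosome 4 between 76828559 and 76830309, or 112 reads per kb (96.8 to 129), and only 2.52% of listed protein-coding genes had less. Ptprd is also the longest member, at 2271 kb. Of the same subfamilies Ptprs, Ptprk, Ptprt and Ptpru had no row. Ptprc, or CD45, the general surface marker of blood cells, had none, nor did its partner Ptprcap, which matches the naming rule but is no phosphatase. The remaining receptor genes with no row were Ptprh, Ptpro and Ptprq, Ptprz1, and the secretory granule proteins Ptprn and Ptprn2.

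Regions were several in 12 of the 28 listed members (42.9%), against 30.9% of listed protein-coding genes. Over all members with or without a row that is 12 of 62, against 5.86% of all protein-coding genes. These shares were not matched for gene length, whose median was 53.9 kb for listed members and 36.2 kb for listed protein-coding genes. The median number of regions per listed gene was 2 for non-receptor types and 1 each for receptor and dual-specificity types. Ptprg (ENSMUSG00000021745) had the most, 8 regions on chromosome 14 from 12383676 to 12934126. They were spread over 550.5 kb and held 16477 reads. Only 35 of the 4771 listed protein-coding rows (0.734%) had as many, but Ptprg is 689 kb long and this share is not matched for length. Its gaps ran from 7.45 to 150.4 kb, whereas the 4 regions of Ptpre lay within 31.95 kb of chromosome 7 between 142782031 and 142813981. Ptpre is a shorter gene, at 148 kb.

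**Figure D4:**
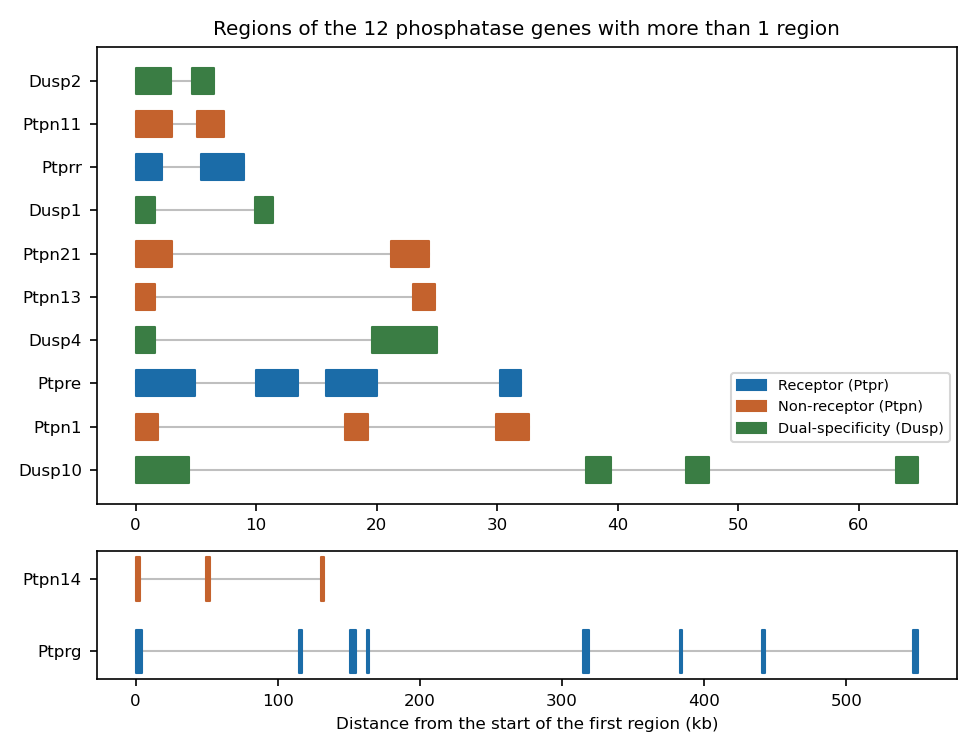
Regions (blocks) of the 12 phosphatase genes with more than 1 region, placed by distance from the start of the first region (horizontal axis, kb, a separate scale in each panel) and coloured by type. In the upper panel each stretch is at most 64.9 kb. In the lower panel Ptpn14 covers 132.8 kb and Ptprg 550.5 kb.

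The widest region of any member was that of Ptprb (ENSMUSG00000020154), 7900 bp on chromosome 10 between 115723870 and 115731770, with 5013 reads. Of all 8133 regions, 83 (1.02%) were at least as wide, and the median width was 2350.0 bp over the 52 member regions, against 2100.0 bp over all. Ptprb and Ptprr were the only listed members that lay close together, with 17.4 kb between the Ptprr regions and that of Ptprb. The next closest pair, Dusp2 and Ptpra, was 3112 kb apart. None of the 28 members shared a region with another gene, whereas 18.7% of listed protein-coding genes shared at least 1, so the members' reads are not counted a second time elsewhere.

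For 6 of the 10 listed Dusp genes the stretch from the first to the last region was longer than the gene itself, so some of it lay outside the gene. This was so for 0 of 9 receptor and 0 of 9 non-receptor genes, and for 9.11% of all listed protein-coding genes. Of those no longer than the longest listed Dusp gene, 41.3 kb, it was so for 13.6%. That set is not matched for length, since the listed Dusp genes had a median of 9.72 kb. Member regions were at least 1500 bp wide, so the shortest genes are easily exceeded. Listed receptor genes are 83.2 kb or longer and listed non-receptor genes 13.5 kb or longer, so a stretch exceeds them less easily. A stretch shorter than its gene may also lie outside it. The counts of 0 therefore do not place the receptor and non-receptor regions inside their genes. The stretch was 11.4 kb at Dusp1, 6.5 kb at Dusp2, 25.0 kb at Dusp4 (gene length 12.3 kb) and 64.9 kb at Dusp10. At Dusp6 and Dusp23 a single region exceeded the gene, 5.30 kb against a gene of 4.26 kb and 2.55 kb against 2.21 kb. Lengths come from RefSeq on GRCm38.p6. Whether regions fall on promoters, exons or introns was not analysed here, because no mm9 annotation was used.

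RefSeq promoter windows, from 250 bases before to 50 after a transcription start, were found for 50 of the 62 members, 24 of them listed. They were searched on both strands for TGTGGT, the core bound by Runx proteins and read on the opposite strand as ACCACA, and for GATC, the site that Dam methylates. Neither motif overlaps the other. TGTGGT occurred in a window of 2 of 24 listed members (8.33%), of 5 of 26 members with no row (19.2%), of 16.8% of the 3287 listed protein-coding genes with a window and of 17.2% of all 17492 protein-coding genes with a window. GATC occurred in 10 of 24 listed members (41.7%), 13 of 26 with no row, 54.3% of listed protein-coding genes and 50.7% of all. These windows are on GRCm38.p6 and were not placed against the mm9 regions, and a match or its absence describes only the letters.

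The 2 windows of listed members that hold TGTGGT are shown first, followed by the window of the Ptpn gene and of the Dusp gene with the most reads per kb among those with a window, in which TGTGGT does not occur. Capitals mark both motifs, and all windows run 5′ to 3′ on the gene's strand.
Ptprr (GRCm38.p6, chr10:116018113-116018412, plus strand, TGTGGT from position -227): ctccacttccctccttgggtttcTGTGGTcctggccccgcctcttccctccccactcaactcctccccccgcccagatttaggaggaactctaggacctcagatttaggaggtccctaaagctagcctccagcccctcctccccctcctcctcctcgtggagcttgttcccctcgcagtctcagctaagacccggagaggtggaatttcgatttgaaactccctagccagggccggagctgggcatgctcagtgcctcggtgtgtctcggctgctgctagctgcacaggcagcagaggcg
Ptpn21 (GRCm38.p6, chr12:98734596-98734895, minus strand, Runx core on the opposite strand from position -214 and GATC from -69): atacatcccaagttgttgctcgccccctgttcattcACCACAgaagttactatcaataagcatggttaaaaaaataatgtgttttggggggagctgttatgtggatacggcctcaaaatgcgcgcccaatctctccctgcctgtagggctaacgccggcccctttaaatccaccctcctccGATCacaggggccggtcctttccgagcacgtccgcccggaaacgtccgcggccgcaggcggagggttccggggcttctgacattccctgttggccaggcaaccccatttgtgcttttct
Ptpn11 (GRCm38.p6, chr5:121191348-121191647, minus strand, GATC from position 22): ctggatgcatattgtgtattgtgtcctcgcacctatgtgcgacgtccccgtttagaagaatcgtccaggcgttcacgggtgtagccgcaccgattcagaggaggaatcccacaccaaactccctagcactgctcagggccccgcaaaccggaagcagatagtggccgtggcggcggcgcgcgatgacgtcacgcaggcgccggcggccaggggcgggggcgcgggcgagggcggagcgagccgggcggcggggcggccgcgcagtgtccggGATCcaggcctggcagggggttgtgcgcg
Dusp6 (GRCm38.p6, chr10:99262981-99263280, plus strand, no GATC): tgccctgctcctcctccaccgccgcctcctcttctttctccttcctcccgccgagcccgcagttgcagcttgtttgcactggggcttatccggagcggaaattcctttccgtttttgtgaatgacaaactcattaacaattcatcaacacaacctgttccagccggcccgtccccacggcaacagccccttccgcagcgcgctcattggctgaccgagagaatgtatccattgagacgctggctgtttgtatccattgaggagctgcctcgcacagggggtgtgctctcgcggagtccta

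Positions count from the transcription start, with negative values before it. Ptprr has further windows and Ptpn21 another, none of which holds TGTGGT. The window of Dusp6, the member with the second highest reads per kb, holds neither motif.

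Genes that work with or against these phosphatases were also listed at shares above the 19.0% of all protein-coding genes. Such shares were thus not seen in the members alone. The lists of these genes were short and were chosen with earlier results of these data known, so their shares are described only. These genes too are longer than the median protein-coding gene (17.1 kb), with list medians from 23.2 kb for MAP kinases to 66.2 kb for cytoplasmic tyrosine kinases. Cytoplasmic tyrosine kinases, whose action the phosphatases reverse, were listed in 15 of 21 cases (71.4%, 47.8 to 88.7%), led by Abl1 at 1556 and the focal adhesion kinase Ptk2 at 1482 reads per kb. Receptor tyrosine kinases were listed in 15 of 25 cases (60.0%, 38.7 to 78.9%), led by Axl at 1361 and the VEGF receptor Kdr at 895. Substrates and adaptors were listed in 10 of 20 cases, with VE-cadherin (Cdh5) at 1601 and the SHP-2 partner Gab1 at 1199. MAP kinases, a family that includes the substrates of the MAP kinase phosphatases, were listed in 7 of 13 cases (53.8%, 25.1 to 80.8%). The highest were the p38 kinase Mapk14 at 1157 and Mapk6 at 704. The only region of Mapk12 was shared with Mapk11, and both are counted.

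Other cysteine-based phosphatases were listed in 12 of 25 cases (48.0%, 27.8 to 68.7%), close to the members' share. The highest were the cell cycle phosphatases Cdc25a at 2380.4 and Cdc25c at 1506 reads per kb. The Cdc25c region was shared with 2010110K18Rik. Catalytic subunits of serine and threonine phosphatases were listed in 7 of 19 cases (36.8%, 16.3 to 61.6%), led by Ppm1a at 1261 and Ppm1k at 1244. Their median of 1044 reads per kb was above that of the members, 653, though over only 7 genes. The genes of the sorting markers, Kdr, Tek, Kit and Itga2b (CD41), were all listed, with 895, 871, 612 and 533 reads per kb. A region at a gene is not its expression, so these values do not check the cells' identity.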

How the data were processed

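Genomic DNA of the 12 libraries was prepared by a DamID protocol and sequenced on the SOLiD platform, per the labels' protocols. Per the submitters' processing notes the genome build was mm9. How reads were aligned, regions called, the Dam libraries used and regions assigned to genes is not stated in the labels or the file header. The authors deposited 1 table with a whole-number read count per gene, per the file headers, and a signal, the read count per kilobase. In all 5867 rows it equalled the reads divided by the summed region length within 0.005. There were 0 other columns of values per sample.

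Symbols were matched to RefSeq genes of GRCm38.p6, which gave names, chromosomes, lengths and promoter windows. Of 4771 protein-coding rows, 4170 (87.4%) matched by symbol, and older names were an alternative. Shares have exact Clopper-Pearson and reads exact Poisson intervals at 95% (scipy 1.17.1, Python 3.11.15). They cover counting error only. Whether PCR copies of a molecule were counted as separate reads is not known, and if so the Poisson intervals are too narrow. The planned count test of Runx1b::Dam against Dam was not possible without a count for each library, and a planned search of protein sequences was not run. Members and lists were chosen with earlier results of these data known. Every listed member is named, with intervals for the 3 genes of each type with the most reads per kb, the 2 with the most regions and the lowest, and of each other list the 2 highest. The 4 sort markers and the intervals of Dusp1, Dusp2 and Ptprb fall outside this rule. The join, the intervals and the motif search were tested on simulated data.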

Additional observations from a re-analysis of the deposited data

How the results depend on the processing

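The shares of listed members changed with the rule for a listed gene. With 2 or more regions required they were 19.4% of all members, 14.3% of receptor and 16.7% of dual-specificity genes, against 5.86% of all protein-coding genes. With reads per kb above the median of all listed genes required they were 19.4% of all members, 9.52% of receptor and 20.8% of dual-specificity genes, against 9.63% of all protein-coding genes. The receptor share was then no higher than that of all genes. Non-receptor genes stood at 29.4% under both rules, down from 52.9%. That is inside the interval of their main share (27.8 to 77.0%). The interval is wide over 17 genes, so this does not show that the share held. Both rules take a part of the listed genes, so they cannot raise a share. Split in its planned way, the dual-specificity share was 80.0% for MAP kinase phosphatases and 14.3% for atypical genes.

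Requiring a region assigned to no other protein-coding gene, or matching older names, left the count of members at 28, and leaving out Ptprcap, chosen after seeing the data, gave 45.9%. Reads per kb divided by each chromosome's median and multiplied by the median of all listed genes, 683, had medians of 739 for non-receptor, 642 for dual-specificity and 531 for receptor genes, against 687 for listed protein-coding genes. Members with 1 region had medians of 637, 589 and 543 in the same order, against 659.5 for such protein-coding genes. The planned exclusion of members with no catalytic signature was not run. No paired analysis was possible because the table has no values per library, and for the same reason no replicate could be left out. Depth cannot show which unlisted members fell just short, since only listed genes have values.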
